A study of Homo sapiens with 14 samples.

Results

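Craniofacial and positional mesenchyme transcription factors are the regulators that tell connective tissue precursors of the head, limbs and trunk where they lie and what skeleton to build. The 47 genes described here are a list of gene symbols (DLX, MSX, ALX, EYA, FOX, AP-2, MEIS, PAX, TBX, TWIST, PRRX, BARX, OSR and related factors). Each of the 47 matched 1 of the 60587 genes in the tables. The rule uses no measured value, but the list was chosen with earlier results of these data known. The series is bulk RNA-seq of whole cartilage pellets made from the human embryonic stem cell line WA01, also called H1, grown in chondrogenic medium. The groups are day 21 (4 libraries), day 30 (5 libraries) and day 45 (5 libraries) of culture. All 3 groups share the cell line and the medium, none carries an engineered allele, and there is no undifferentiated or untreated group. The comparisons ask how the pellets differ between these stages of cartilage formation. All pellets come from 1 cell line, and no label tells whether the replicates were separate cultures. The p-values therefore reflect the spread among these libraries, which may be technical.

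As background, the skeleton of the face is built by neural crest mesenchyme, in which the distal-less (DLX), MSX, ALX and BARX homeobox factors and TWIST1 act. The vertebral column comes from the sclerotome of the somites, marked by PAX1, PAX9, NKX3-2 and the MEOX factors. The PRRX and forkhead C factors are broad markers of mesenchyme that has not yet become bone or cartilage, and MEIS and PBX proteins are DNA-binding partners of HOX proteins. HOX genes are silent in the crest that forms the jaws and active in the trunk and limbs, so they are the usual companions of these factors in describing position.

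The promoter sequences of 5 of the factors are shown because these members are neighbours (FOXC1 and FOXF2) or relatives (SIX2 and SIX4) with different patterns of calls over the 2 intervals, and DLX2 was called lower in both. Each is the 250 bases before the RefSeq start of the gene, read 5′ to 3′ on the strand of the gene from RefSeq on GRCh38.p14, and none overlaps an exon of its own gene in GENCODE 29. DLX2 lies at chr2:172102901-172103150 (minus strand), SIX2 at chr2:45009453-45009702 (minus strand), SIX4 at chr14:60724352-60724601 (minus strand), FOXC1 at chr6:1609665-1609914 (plus strand) and FOXF2 at chr6:1389326-1389575 (plus strand). Capitals mark matches on either strand to TAATTA (a homeodomain core), TGACAG (a MEIS core), TGTTTAC (a forkhead core), CANNTG (the E-box) and CCAAT (the CCAAT box).
DLX2: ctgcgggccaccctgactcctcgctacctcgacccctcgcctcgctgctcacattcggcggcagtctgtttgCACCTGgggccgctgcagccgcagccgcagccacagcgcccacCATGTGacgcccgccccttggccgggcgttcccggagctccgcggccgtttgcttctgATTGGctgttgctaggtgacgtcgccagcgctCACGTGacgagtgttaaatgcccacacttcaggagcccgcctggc
SIX2: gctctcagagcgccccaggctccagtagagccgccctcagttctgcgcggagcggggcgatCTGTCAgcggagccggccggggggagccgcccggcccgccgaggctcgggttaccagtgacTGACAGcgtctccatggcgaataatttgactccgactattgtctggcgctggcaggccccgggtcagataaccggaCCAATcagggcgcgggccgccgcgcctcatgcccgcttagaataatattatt
SIX4: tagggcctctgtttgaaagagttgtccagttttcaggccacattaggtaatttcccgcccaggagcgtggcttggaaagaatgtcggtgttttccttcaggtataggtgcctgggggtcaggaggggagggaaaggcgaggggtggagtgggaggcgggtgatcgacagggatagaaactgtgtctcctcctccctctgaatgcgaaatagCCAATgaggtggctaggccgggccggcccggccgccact
FOXC1: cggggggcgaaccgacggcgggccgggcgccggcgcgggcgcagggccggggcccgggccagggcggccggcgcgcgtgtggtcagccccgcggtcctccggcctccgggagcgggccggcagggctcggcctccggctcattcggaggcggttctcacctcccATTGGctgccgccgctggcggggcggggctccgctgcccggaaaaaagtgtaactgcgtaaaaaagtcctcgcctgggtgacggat
FOXF2: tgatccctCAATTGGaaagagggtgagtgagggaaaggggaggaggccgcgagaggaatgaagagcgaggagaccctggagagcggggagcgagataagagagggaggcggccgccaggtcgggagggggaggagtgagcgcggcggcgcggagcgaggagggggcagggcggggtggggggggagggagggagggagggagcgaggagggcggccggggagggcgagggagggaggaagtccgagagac

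The DLX2 window held 3 E-boxes and 1 CCAAT box, that of SIX2 held 2 MEIS cores and 1 CCAAT box, and those of SIX4 and FOXC1 held 1 CCAAT box each. In the FOXF2 window 1 E-box and 1 CCAAT box overlapped. Of the 47 members 31 had an entry in the promoter table. Among these, 18 held a CCAAT box (58.1%, against 33.0% of the 27305 genes with an entry), 13 an E-box (41.9% against 62.2%), 4 the MEIS core (12.9% against 13.1%, in SIX2, FOXD1, UNCX and PBX3), 3 the homeodomain core (9.7% against 4.5%, in HAND2, MSX2 and UNCX) and 0 the forkhead core (3.0% of all genes). The GC content of the windows had a median of 62.0% for the members and 58.0% for all genes. A match is a description of letters and not a measured binding site, and the windows were not related to the changes by a test.

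The libraries held 18183776 to 33660704 expected counts, and 3 counts were the floor used for a gene at 0. By raw library totals this floor was worth 0.0891 CPM in the deepest library and 0.165 CPM in the shallowest. All other CPM values are scaled by TMM, where 3 counts were 0.076 CPM in day 21 replicate 2 and 0.139 CPM in day 30 replicate 3. A label conflict exists: the title of day 45 replicate 1 says day 45 and its treatment field says 30 days. It was used at day 45, and the members' calls that end with it placed at day 30 are named below. Day 30 replicates 3 to 5 stood apart by gene length. Over 17612 genes, themselves not independent, each library's deviation correlated with exon length at a Spearman rho of -0.37, -0.40 and -0.37 in them, against -0.05 and -0.06 in their 2 companions of day 30 and 0.08 to 0.18 in the day 21 and day 45 libraries. Exon length had a median of 3660 bases over the 37 members tested and of 4487 bases over these genes. The tissue label held: the 12 cartilage markers summed to 47211 to 60898 CPM at day 21, 111772 to 262375 CPM at day 30 and 207911 to 327056 CPM at day 45, against 29110 to 31157, 22718 to 32118 and 25673 to 34370 CPM for 10 markers of fibrous tissue. Marker sums over the days were 11.9 to 13.2, 13.3 to 20.8 and 13 to 27.3 CPM for skeletal muscle, 18.5 to 23.7, 8.54 to 16.5 and 14.4 to 19.3 CPM for neurons, 24 to 32.4, 6.41 to 15.9 and 8.59 to 11.9 CPM for endothelium and blood, 59.7 to 79.8, 50.6 to 63.7 and 52.1 to 83.7 CPM for epithelium, and 402 to 460, 209 to 515 and 129 to 211 CPM for smooth muscle. The muscle factor MYF5, the neural factors SOX1 and NEUROD1, the endothelial cadherin CDH5 and the globin HBG1 had 0 counts in every library. Other markers of these lists were detected. The neuron sum was mostly TUBB3 (11.2 to 16.1 CPM at day 21, 13.9 to 19.1 CPM at day 45). The endothelium and blood sum was mostly KDR (23.4 to 32 CPM at day 21, 7.2 to 10.6 CPM at day 45). The epithelium sum was mostly KRT8 and the smooth muscle sum mostly TAGLN. DES (muscle) was at 1.45 to 2.78 CPM at day 21 and 8.41 to 18.7 CPM at day 45. MYH3 and TNNT1 (muscle) were at 4.64 to 4.99 and 5.07 to 6.74 CPM at day 21. At day 45 they were at 1.57 to 2.84 and 2.39 to 5.65 CPM. Of the 3 muscle markers tested, 1 was called higher and 2 lower between these days. Over all genes tested, 27.1% were called higher and 30.5% lower. DCX (neurons) was at 4.59 to 6.85 CPM at day 21 and 0.11 to 0.412 CPM at day 45.

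Between genes, levels are given per length as TPM, and PRRX1, a homeobox factor of limb and facial mesenchyme, was the most abundant member at every day. PRRX1 was at 246 ± 27.2 TPM at day 21 (SD, n = 4), 117 ± 27.7 TPM at day 30 (SD, n = 5) and 103 ± 15.8 TPM at day 45 (SD, n = 5). Next by the mean of the 3 days came SIX2 (58.0 TPM), a factor of facial and kidney mesenchyme, FOXC1 (49.4 TPM), MSX2 (47.3 TPM), PRRX2 (39.0 TPM) and PBX3 (38.6 TPM). SIX2 was above FOXC1 in every library of days 21 and 30 and below it in every library of day 45 (52.5 ± 6.76 and 36.5 ± 8.12 TPM at day 30, 36.4 ± 3.13 and 45.4 ± 3.47 TPM at day 45, SD, n = 5). MSX2 was above FOXC1 in 3 of the 4 day 21 libraries. At the lower end, 12 of the 47 members never exceeded 1 CPM in any library.

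**Figure D1:**
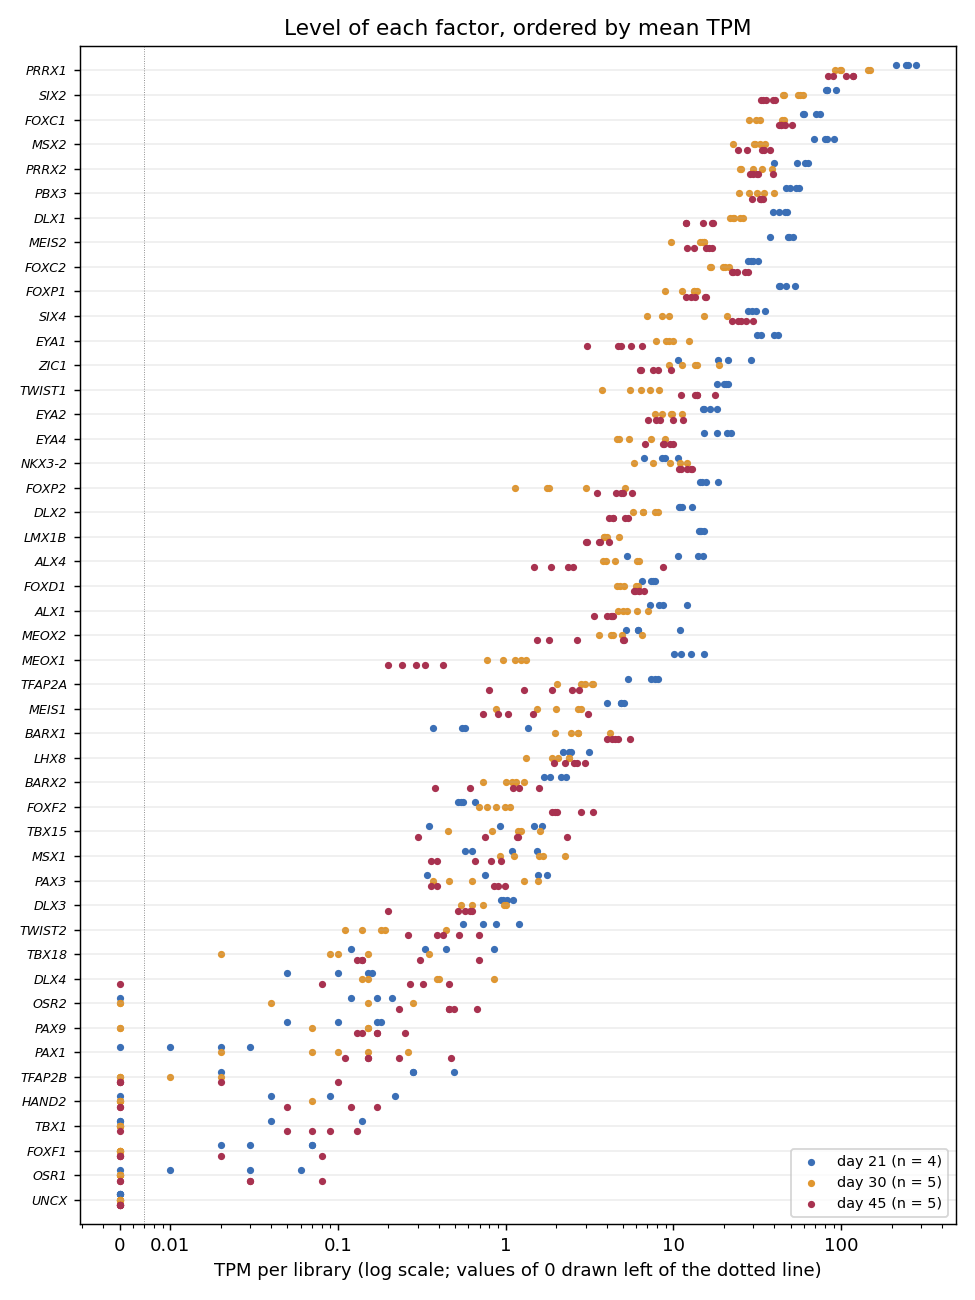
Each row is a factor and each point a library, with TPM on a log axis, day 21 in blue, day 30 in orange and day 45 in red, and rows ordered by the mean of the day means. PRRX1 is at the top at 83.2 to 278 TPM, and UNCX at the bottom has 0 in every library.

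Most of these factors that changed between day 21 and day 45 were lower in the older pellets, and MEOX1, EYA1, TFAP2A, LMX1B, MEIS1, FOXP2 and MEIS2 fell the most, by 34.3-fold, 6.3-fold, 3.59-fold, 3.07-fold, 2.95-fold, 2.66-fold and 2.64-fold. BARX1, FOXF2 and NKX3-2, factors of jaw, gut and vertebral mesenchyme, rose, by 8.53-fold, 5.71-fold and 1.87-fold. Summed over all 47, the factors gave 1161 to 1288 CPM at day 21, 740 to 868 CPM at day 30 and 700 to 775 CPM at day 45, so that the day 21 libraries lay above all others and those of days 30 and 45 overlapped. Between days 21 and 45, 10 of the 12 cartilage markers rose and 1 fell, and of 10 fibrous tissue markers 1 rose and 5 fell. Over all genes tested 27.1% were called higher and 30.5% lower between these days. The part of a shift in cell types in the changes below was not tested. RNA came from whole pellets, in which fewer cells of a type and less RNA per cell cannot be told apart.

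Of the 47 members 37 passed the filter on low counts and were tested, and 10 were not. From day 21 to day 45, 3 of the 47 (6.38%, or 8.11% of the 37 tested) were called higher and 19 (40.4%, or 51.4%) lower by edgeR's quasi-likelihood test at a Benjamini-Hochberg adjusted p below 0.05, while 15 tested members were not called. Over all 17838 genes tested, 57.7% were called, 27.1% higher and 30.5% lower. The median log2 fold change was -0.66 over the tested members and -0.05 over all genes tested. From day 21 to day 30, 4 members (8.51% of 47, 10.8% of the 37 tested) rose and 18 (38.3% and 48.6%) fell, against 54.4% of all genes called (27.2% higher, 27.1% lower), with a median of -0.41 for the members tested and 0.02 for all. On log2(TPM + 1), limma called 1 member higher and 26 lower in this interval. The median over all genes tested was itself -0.35 in that fit (and -0.34 between days 21 and 45). From day 30 to day 45, 8 members (17% of 47, 21.6% of the 37 tested) rose and 12 (25.5% and 32.4%) fell, against 56.3% of all genes called (27.6% higher, 28.7% lower), with medians of -0.13 and -0.04. With day 45 replicate 1 placed at day 30 these counts were 1 and 6, and without day 30 replicates 3 to 5 the higher count was 5. The 13 calls that ended with day 45 replicate 1 at day 30 were those of MSX1, ALX1, LMX1B, BARX1, PRRX1, SIX4, FOXC1, FOXC2, FOXD1, FOXF2, TFAP2A, MEIS1 and TWIST2. The shares of all genes are over tested genes alone. These comparisons share libraries, and so are not independent of each other.

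The change itself differed between the intervals for 13 members: the later log2 change exceeded the earlier one for 11 (23.4% of 47, 29.7% of the 37 tested) and was below it for 2 (4.26% and 5.41%), against 52.7% of all genes called in this test (25.3% higher, 27.5% lower). On log2(TPM + 1), limma called 19 and 1. Among the members tested, 9 fell in both intervals (DLX1, DLX2, LMX1B, PRRX1, EYA1, TFAP2A, ZIC1, MEIS1 and MEOX1), 5 were called lower in the first alone (MSX2, EYA4, FOXP1, FOXP2 and MEIS2), and 4 fell and then rose (SIX4, FOXC1, TWIST1 and TWIST2). BARX1 and FOXF2 rose in both, MSX1 rose and then fell, NKX3-2 was called higher in the first interval alone, FOXC2 and FOXD1 were called higher and ALX1 and SIX2 lower in the second alone, and 11 were called in neither interval. Being called in 1 interval and not in the other does not show that the changes differ, and the test of the difference is given below where it was called.

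**Figure D2:**
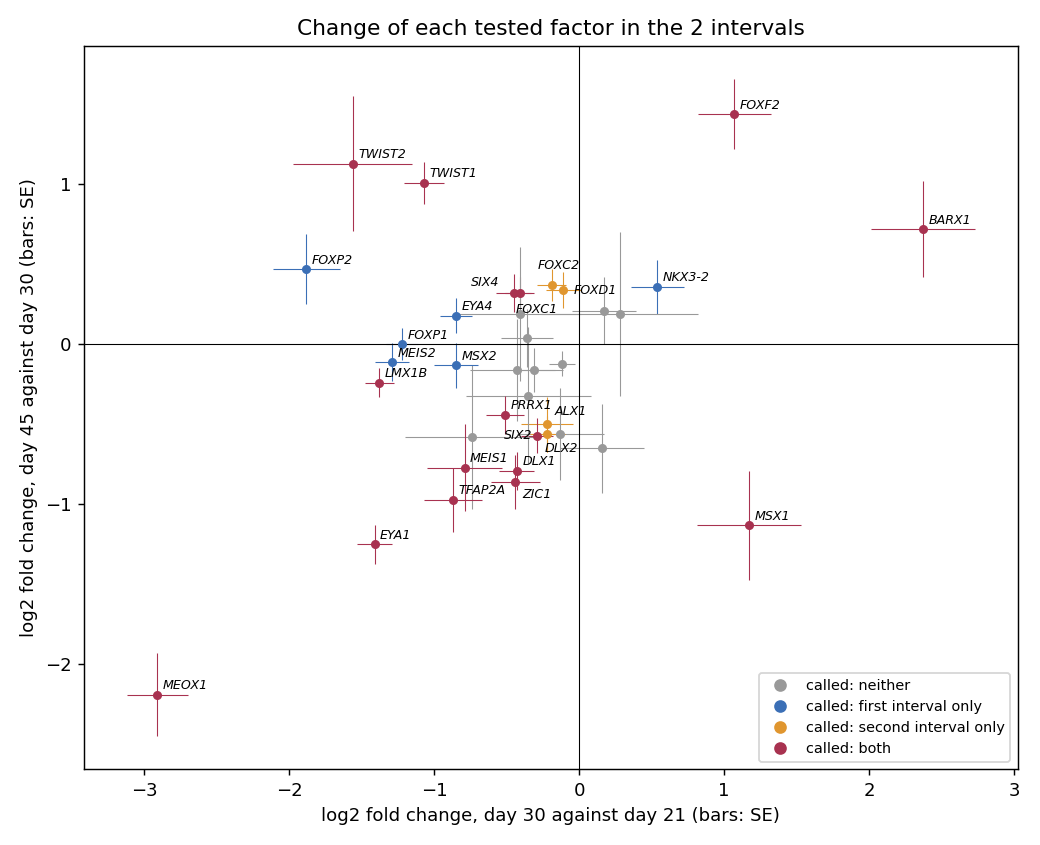
Each point is 1 of the 37 factors tested, with its log2 fold change from day 21 to day 30 on the horizontal axis and from day 30 to day 45 on the vertical axis, bars showing the SE and colour the interval in which it was called. MEOX1 lies at -2.91 and -2.19, BARX1 at 2.37 and 0.72, and TWIST1 at -1.07 and 1.01.

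The jaw and limb homeobox factors were led by DLX1 and MSX2. At day 45 against day 21, 6 of the 12 were called lower and 1 higher. Of the 11 tested these were 54.5% and 9.09%, against 30.5% and 27.1% of all genes tested. DLX1 (chromosome 2, 172084740 to 172089677, plus strand, GRCh38) and DLX2 (172099439 to 172102900, minus strand) lie 9.8 kb apart and pattern the upper jaw and forebrain neurons. Values are given in replicate order, in CPM scaled by TMM. DLX1 was at 29.8, 32.2, 35.2 and 38.1 CPM at day 21, 23.3, 20.6, 29.3, 28.4 and 23.8 CPM at day 30 and 12.6, 15.6, 16.6, 15.8 and 11.9 CPM at day 45. DLX2 was at 12.3, 11.6, 12.7 and 12.7 CPM at day 21, 10.5, 10.2, 10.4, 10.5 and 8.8 CPM at day 30 and 6.59, 6.19, 8.08, 7.2 and 5.93 CPM at day 45. For both genes every day 21 library lay above every day 30 library, and those above every day 45 library. DLX1 fell by 1.22 ± 0.13 on the log2 scale between days 21 and 45 (SE, edgeR adjusted p = 2.58e-07) and DLX2 by 0.86 ± 0.11 (adjusted p = 3.44e-06). Per length, DLX1 stood at 3.82, 3.39 and 3.11 times DLX2 by the means of TPM at the 3 days. The first step of DLX2 (-0.29 ± 0.11, adjusted p = 0.033) lost its call under 7 alternatives: no filter on low counts, the replicate block, and leaving out day 21 replicate 1, 3 or 4, day 30 replicate 5 (-0.24, adjusted p = 0.0848) or day 30 replicates 3 to 5 (-0.26, adjusted p = 0.153).

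MSX2 (chromosome 5, 174724533 to 174730893, plus strand), a target of BMP signals in skull and jaw mesenchyme, was far above its relative MSX1, which patterns teeth and palate. MSX2 was at 62.9, 61.3, 55.5 and 73.8 CPM at day 21, 30.6, 24.2, 41.0, 42.5 and 37.4 CPM at day 30 and 28.9, 36.3, 34.4, 35.5 and 25.7 CPM at day 45. All day 21 libraries were above those of the later days, which overlapped. MSX2 fell by 0.85 ± 0.15 in the first interval (log2, SE, edgeR adjusted p = 0.000133) and was at -0.13 ± 0.14 in the second (adjusted p = 0.457), a difference between intervals of 0.72 ± 0.25 (adjusted p = 0.0241) whose call ended without day 30 replicate 1 or 2. MSX1 was at 0.556, 0.912, 0.44 and 0.68 CPM at day 21, 0.88, 0.955, 1.53, 2.58 and 1.38 CPM at day 30 and 0.471, 1.05, 0.771, 0.658 and 0.371 CPM at day 45. MSX1 rose by 1.17 ± 0.36 and then fell by 1.13 ± 0.34 on the log2 scale (adjusted p = 0.0109 and 0.0104), with values of the days overlapping. The steps differed by -2.29 ± 0.59 (adjusted p = 0.00346). Without day 30 replicates 3 to 5 the changes were 0.49 (adjusted p = 0.393) and -0.47 (adjusted p = 0.413) and their difference -0.96 (adjusted p = 0.389). With day 45 replicate 1 placed at day 30 both steps lost their calls too (0.99, adjusted p = 0.0616, and -0.85, adjusted p = 0.119), and so did the first on log2(TPM + 1) (0.36, limma adjusted p = 0.0884). By the means of TPM, MSX2 was at 83.8, 20 and 49.6 times MSX1.

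LMX1B (chromosome 9, 126614443 to 126701032, plus strand), the factor of dorsal limb identity, took most of its fall before day 30. LMX1B was at 44.0, 42.5, 42.0 and 44.9 CPM at day 21, 18, 14.2, 17.5, 17.1 and 16.8 CPM at day 30 and 12.9, 16.3, 12.6, 14 and 14.8 CPM at day 45. The day 21 values lay between 42.0 and 44.9 CPM, and the highest later value was 18 CPM. The log2 change was -1.38 ± 0.10 in the first interval (SE, edgeR adjusted p = 6.43e-09) and -0.24 ± 0.09 in the second (adjusted p = 0.0347), and they differed by 1.13 ± 0.16 (adjusted p = 3.03e-05). The call of the second step ended under 12 of the alternatives, among them leaving out day 30 replicates 3 to 5 (-0.20, adjusted p = 0.193).

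BARX1 (chromosome 9, 93951622 to 93955372, minus strand), a factor of molar-field and stomach mesenchyme, had the largest rise among the members tested, from a low level. BARX1 was at 0.889, 0.355, 0.181 and 0.312 CPM at day 21, 2.1, 1.29, 3.52, 2.28 and 2.0 CPM at day 30 and 4.75, 3.11, 3.42, 3.46 and 3.83 CPM at day 45. No library of the later days was as low as any of day 21, and days 30 and 45 overlapped. It rose by 2.37 ± 0.36 by day 30 and by 3.09 ± 0.36 by day 45 on the log2 scale (SE, edgeR adjusted p = 3.71e-05 and 1.19e-06). The second step (0.72 ± 0.30, adjusted p = 0.0454) was not called under 11 of the alternatives, among them placing day 45 replicate 1 at day 30 (0.37, adjusted p = 0.427). The difference between the steps (-1.64 ± 0.55, adjusted p = 0.0181) lost its call without day 30 replicate 3 (-1.21, adjusted p = 0.0842) or replicates 3 to 5 (-0.88, adjusted p = 0.396), and on log2(TPM + 1) (-0.58, limma adjusted p = 0.11). Its relative BARX2 was between 0.411 and 1.97 CPM and was not called in any comparison.

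ALX1 and ALX4 are paired-type homeobox factors of frontonasal mesenchyme. ALX1 was at 4.14, 4.66, 4.09 and 6.89 CPM at day 21, 4.75, 3.32, 4.91, 4.46 and 3.73 CPM at day 30 and 2.59, 2.89, 3.27, 3.04 and 3.21 CPM at day 45. ALX1 fell by 0.72 ± 0.18 on the log2 scale between days 21 and 45 (SE, edgeR adjusted p = 0.0021), with no overlap of these days. ALX4 was at 41.6, 37.9, 13.2 and 30.1 CPM at day 21, 15.3, 13, 24.5, 24.3 and 14.9 CPM at day 30 and 7.3, 31.0, 5.55, 8.19 and 9.36 CPM at day 45. Libraries of all 3 days overlapped: day 21 replicate 3 was the lowest of its day at 13.2 CPM and day 45 replicate 2, at 31.0 CPM, was above day 21 replicates 3 and 4. ALX4 was called lower at day 45 than at day 21 (-1.32 ± 0.47, adjusted p = 0.0272), a call that ended under 9 alternatives, among them placing day 45 replicate 1 at day 30 (-1.18, adjusted p = 0.062). Without day 45 replicate 2 the change was -2.01 (adjusted p = 5.61e-05), and the step from day 30 to day 45 went from -0.58 (adjusted p = 0.29) to -1.28 (adjusted p = 0.00237). DLX3, a factor of teeth and skin, and LHX8, a factor of the palate and basal forebrain, were at 0.331 to 1.74 and 1.38 to 3.0 CPM and were not called.

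The paired-related factors PRRX1 (chromosome 1, 170662728 to 170739419, plus strand) and PRRX2 act redundantly in limb and craniofacial mesenchyme, and PRRX1 alone was called. PRRX1 was at 286.0, 326.0, 396.0 and 368.0 CPM at day 21, 272.0, 278.0, 209.0, 242.0 and 205.0 CPM at day 30 and 152.0, 193.0, 198.0, 189.0 and 156.0 CPM at day 45. In CPM the 3 days did not overlap, with PRRX1 highest at day 21. In TPM days 30 and 45 overlapped (91.7 to 149 and 83.2 to 117 TPM). It fell by 0.96 ± 0.13 between days 21 and 45 (log2, SE, edgeR adjusted p = 5.04e-06). The step to day 30 (-0.51 ± 0.13, adjusted p = 0.00255) was -0.33 without day 30 replicates 3 to 5 (adjusted p = 0.0652). PRRX2 was at 35.0, 32.1, 19.3 and 30.4 CPM at day 21, 19.5, 16.1, 30.5, 27.8 and 19.6 CPM at day 30 and 23.8, 27.5, 21.8, 20.2 and 23.2 CPM at day 45. Day 21 replicate 3 was below all 5 day 45 libraries and the other day 21 libraries above them, and the change between these days was -0.33 ± 0.18 (adjusted p = 0.139). Without day 30 replicates 3 to 5, PRRX2 was called lower at day 30 than at day 21 (-0.72, adjusted p = 0.0113).

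SIX2, SIX4 and their EYA partners form a complex of DNA-binding protein and phosphatase coactivator in sensory placodes, kidney and muscle. Of these members 4 of 5 were called lower at day 45 than at day 21 (80%, against 30.5% of all genes tested). EYA1 (chromosome 8, 71197433 to 71592025, minus strand) fell furthest of them. EYA1 was at 44.7, 47.2, 55.7 and 58.3 CPM at day 21, 21.5, 19.9, 18.8, 17.3 and 19.4 CPM at day 30 and 6.04, 9.38, 9.22, 8.43 and 7.75 CPM at day 45. The days were wholly apart and in the order of time. EYA1 fell by 1.41 ± 0.12 and then by 1.25 ± 0.12 on the log2 scale (SE, edgeR adjusted p = 6.18e-08 and 3.95e-07), and both steps were called under every alternative. EYA4 was at 31.5, 35.0, 36.9 and 27.9 CPM at day 21, 20.6, 19.6, 16.5, 16.5 and 17.6 CPM at day 30 and 17.6, 22.6, 23.0, 19.7 and 19.7 CPM at day 45. EYA4, an EYA member of the inner ear and heart muscle, was lower in all later libraries than in those of day 21, and the later days overlapped. It fell by 0.85 ± 0.11 (log2, adjusted p = 5.92e-06) and was at 0.18 ± 0.11 in the second interval (adjusted p = 0.162), a difference between intervals of 1.03 ± 0.19 (adjusted p = 0.000257). EYA2 was at 16.8 to 18 CPM at day 21 and 10.5 to 14.3 CPM at day 45 and fell by 0.47 ± 0.14 (log2, adjusted p = 0.00854).

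SIX2 (chromosome 2, 45005161 to 45009430, minus strand) and SIX4 (chromosome 14, 60709528 to 60724348, minus strand) are DNA-binding members of this complex. SIX2 was at 83.1, 80.0, 84.2 and 82.9 CPM at day 21, 69.8, 53.3, 84.8, 82.3 and 64.6 CPM at day 30 and 49.6, 51.6, 52.7, 41.9 and 45.3 CPM at day 45. All day 45 values were below those of the earlier days, which overlapped, and SIX2 fell by 0.56 ± 0.11 in the second interval (log2, SE, edgeR adjusted p = 0.000459). SIX4 was at 47.3, 50.3, 61.3 and 52.5 CPM at day 21, 49.2, 42.4, 36.8, 29.7 and 35.4 CPM at day 30 and 47.8, 45.7, 47.1, 45.7 and 55.3 CPM at day 45. Day 30 replicates 3 to 5 held the 3 lowest values. SIX4 fell by 0.45 ± 0.12 and then rose by 0.32 ± 0.12 (log2, adjusted p = 0.00571 and 0.0294), and without those 3 libraries neither step was called (-0.21, adjusted p = 0.157, and 0.06, adjusted p = 0.678). The steps differed by 0.77 ± 0.21 (adjusted p = 0.0058), and by 0.27 without those libraries (adjusted p = 0.343). The second step lost its call under 6 alternatives in all, among them leaving out day 30 replicate 3, 4 or 5 or day 45 replicate 5. Whether the changes of SIX4 differ from those of SIX2 was not tested.

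Of the 7 forkhead factors 6 were tested. From day 30 to day 45, 4 rose (66.7% of those tested, against 27.6% of all genes tested). All 4 lost this call with day 45 replicate 1 placed at day 30. Between days 21 and 45, 1 rose and 2 fell (16.7% and 33.3%, against 27.1% and 30.5% of all genes tested). FOXF2 (chromosome 6, 1389576 to 1395603, plus strand), a factor of palate and gut mesenchyme, and FOXC1 (1609972 to 1613897, plus strand), which patterns skull and eye mesenchyme, lie 214.4 kb apart. FOXF2 was at 0.75, 0.608, 0.543 and 0.595 CPM at day 21, 0.957, 1.4, 1.39, 1.64 and 1.23 CPM at day 30 and 4.4, 2.85, 3.05, 2.67 and 4.95 CPM at day 45. The days did not overlap and rose in order. FOXF2 rose by 1.07 ± 0.25 and by 1.44 ± 0.22 on the log2 scale (SE, edgeR adjusted p = 0.00161 and 3.45e-05). With day 45 replicate 1, at 4.4 CPM, placed at day 30 the second step was 0.87 (adjusted p = 0.0654), and the first step was 0.25 on log2(TPM + 1) (limma adjusted p = 0.106). FOXC1 was at 113.0, 111.0, 128.0 and 135.0 CPM at day 21, 107.0, 99.4, 84.0, 91.3 and 75.5 CPM at day 30 and 116.0, 106.0, 108.0, 122.0 and 117.0 CPM at day 45. The day 30 values were all below those of day 21, with day 30 replicates 3 to 5 lowest, and day 30 replicate 1 just exceeded the lowest day 45 value. FOXC1 fell by 0.41 ± 0.10 and then rose by 0.32 ± 0.10 (log2, adjusted p = 0.00276 and 0.0111). Without day 30 replicates 3 to 5 both calls ended (-0.24, adjusted p = 0.064, and 0.13, adjusted p = 0.31). The steps differed by 0.73 ± 0.18 (adjusted p = 0.00223), and by 0.37 without those libraries (adjusted p = 0.137).

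FOXC2, which shares roles with FOXC1 in somites and vessels, and FOXD1, a factor of kidney stroma, were called higher at day 45 than at day 30. FOXC2 was at 43.5, 36.6, 35.0 and 40.8 CPM at day 21, 35.6, 32.4, 38.1, 32.8 and 32.2 CPM at day 30 and 52.4, 38.8, 41.1, 40.6 and 48.1 CPM at day 45. Every day 45 library was above every day 30 library, and those of day 21 overlapped both. FOXC2 rose by 0.37 ± 0.10 and FOXD1 by 0.34 ± 0.11 (log2, SE, edgeR adjusted p = 0.00446 and 0.0165), and with day 45 replicate 1 placed at day 30 these were 0.18 (adjusted p = 0.306) and 0.28 (adjusted p = 0.0898). The steps of FOXC2 differed by 0.56 ± 0.18 (adjusted p = 0.0136), a call that ended with that placement (0.24, adjusted p = 0.414) and without day 30 replicates 3 to 5 (0.57, adjusted p = 0.0859). FOXD1 was at 6.41 to 8.71 CPM at day 30 and 8.67 to 9.99 CPM at day 45. Of its exon bases 16.2% are shared with an antisense gene, and the library kit does not mark strand.

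FOXP1 (chromosome 3, 70952817 to 71583993, minus strand) and FOXP2 (chromosome 7, 114086327 to 114693772, plus strand), repressors that act in perichondrium, lung and brain, were called lower in the first interval alone. FOXP1 was at 54.5, 58.4, 71.5 and 60.3 CPM at day 21, 25.4, 27.4, 29.2, 22.3 and 26.9 CPM at day 30 and 22.7, 24.5, 28.1, 30.5 and 25.8 CPM at day 45. FOXP2 was at 23.2, 22.3, 30.1 and 24.1 CPM at day 21, 11, 8.26, 5.09, 3.62 and 5.69 CPM at day 30 and 8.91, 9.95, 7.46, 8.93 and 11.6 CPM at day 45. For both, all later libraries were below those of day 21 and the later days overlapped. FOXP1 fell by 1.22 ± 0.11 and then stood at 0.00 ± 0.10 (log2, SE, edgeR adjusted p = 9.3e-08 and 0.979), and FOXP2 fell by 1.88 ± 0.23 and was then at 0.47 ± 0.22 (adjusted p = 3.47e-06 and 0.0805). The intervals differed by 1.23 ± 0.19 for FOXP1 (adjusted p = 4.63e-05) and by 2.35 ± 0.40 for FOXP2 (adjusted p = 0.000148). FOXP2 was lowest in day 30 replicates 3 to 5. Without them its first change was -1.37 (adjusted p = 1.8e-05), the second -0.06 (adjusted p = 0.804) and the difference 1.31 (adjusted p = 0.00666).

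TFAP2A (chromosome 6, 10393186 to 10419659, minus strand) and ZIC1 (chromosome 3, 147393422 to 147510293, plus strand), factors of the neural plate border from which neural crest arises, fell in both intervals. TFAP2A was at 7.2, 7.7, 6.44 and 8.9 CPM at day 21, 4.32, 3.09, 4.86, 4.71 and 3.65 CPM at day 30 and 1.06, 2.59, 2.13, 2.34 and 2.39 CPM at day 45. ZIC1 was at 21.8, 19.2, 11.9 and 16.9 CPM at day 21, 9.07, 14.9, 14.2, 14.4 and 12 CPM at day 30 and 5.77, 8.29, 7.01, 7.53 and 6.84 CPM at day 45. The days did not overlap for TFAP2A, and for ZIC1 the day 45 values lay below all earlier ones while days 21 and 30 overlapped, with day 21 replicate 3 at 11.9 CPM. Between days 21 and 45 TFAP2A fell by 1.84 ± 0.21 and ZIC1 by 1.30 ± 0.17 (log2, SE, edgeR adjusted p = 7.26e-07 and 4.95e-06). The first step of ZIC1 (-0.44 ± 0.17, adjusted p = 0.0357) was not called without any 1 of day 21 replicates 1, 2 and 4 or day 30 replicates 1 and 5, or without day 30 replicates 3 to 5 (-0.56, adjusted p = 0.0727). The antisense genes TFAP2A-AS2 and TFAP2A-AS1 share 11.4% and 5.29% of the exon bases of TFAP2A. Of 7 markers of neural crest and Schwann cells 6 were tested, and all 6 were called lower at day 45 than at day 21. From day 21 to day 30, 1 was called higher and 3 lower. Their sum was 195 to 253 CPM at day 21, 168 to 302 CPM at day 30 and 39.5 to 67.6 CPM at day 45. S100B and ERBB3 made up most of this sum, and which cells of the pellets held their RNA was not tested. S100B was at 103 to 148, 145 to 279 and 35.5 to 63.2 CPM at the 3 days. ERBB3 was at 80.8 to 111, 16.7 to 19.6 and 2.16 to 3.87 CPM. The defining crest factors SOX10 and FOXD3 were at no more than 0.595 and 0.0463 CPM in any library. The part of crest and Schwann cells in the change of TFAP2A and ZIC1 was not tested.

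The TALE homeobox cofactors MEIS1, MEIS2 and PBX3 were all called lower at day 45 than at day 21, against 30.5% of all genes tested. MEIS2 (chromosome 15, 36889204 to 37101299, minus strand), needed in cranial crest and heart, was the most abundant of the MEIS members. MEIS2 was at 39.7, 35.1, 43.5 and 42.9 CPM at day 21, 18, 19, 15.6, 13.3 and 16.5 CPM at day 30 and 12.6, 15.7, 17.8, 16.2 and 13.9 CPM at day 45. The lowest day 21 value was 35.1 CPM, and the highest later value was 19 CPM. MEIS2 fell by 1.29 ± 0.12 and was at -0.11 ± 0.12 in the second interval (log2, SE, edgeR adjusted p = 1.5e-07 and 0.421), a difference of 1.18 ± 0.21 (adjusted p = 0.000169). MEIS1 was at 3.97, 4.48, 3.05 and 4.93 CPM at day 21, 1.8, 3.37, 2.13, 2.08 and 2.54 CPM at day 30 and 0.903, 2.51, 1.21, 1.32 and 0.989 CPM at day 45. Day 45 replicate 2 was the highest of its day, and days 21 and 45 did not overlap. MEIS1, which marks proximal limb and blood progenitors, fell by 1.56 ± 0.27 between these days (log2, adjusted p = 8.75e-05). Its steps were -0.79 ± 0.26 and -0.77 ± 0.27 (adjusted p = 0.017 and 0.0213), and neither was called without day 30 replicates 3 to 5 (-0.69, adjusted p = 0.148, and -0.88, adjusted p = 0.0665). PBX3 was at 50.2, 43.4, 45.4 and 47.9 CPM at day 21, 45.9, 45.8, 46.1, 41.2 and 36.8 CPM at day 30 and 38.0, 39.1, 39.0, 40.4 and 42.0 CPM at day 45. The day 45 values of PBX3, a broad HOX partner, were all below those of day 21, and day 30 overlapped both. Its change of -0.24 ± 0.09 (adjusted p = 0.0265) lost its call under 7 alternatives, among them placing day 45 replicate 1 at day 30 (-0.22, adjusted p = 0.0772).

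In the sclerotome and somite group, the fall of MEOX1 (chromosome 17, 43640388 to 43661954, minus strand), a homeobox factor of early somites, was the largest of any member tested. MEOX1 was at 16.1, 11.8, 10.8 and 13.5 CPM at day 21, 1.38, 1.12, 2.04, 2.08 and 2.0 CPM at day 30 and 0.353, 0.263, 0.331, 0.658 and 0.288 CPM at day 45. The 3 days were far apart, from at least 10.8 CPM at day 21 to at most 0.658 CPM at day 45. MEOX1 fell by 2.91 ± 0.21 and then by 2.19 ± 0.26 on the log2 scale (SE, edgeR adjusted p = 8.98e-09 and 3.57e-06). The steps differed by 0.72 ± 0.42 (adjusted p = 0.155), and by 1.62 without day 30 replicates 3 to 5 (adjusted p = 0.0334). MEOX2 was at 6.75, 5.5, 10.7 and 6.8 CPM at day 21, 5.63, 8.26, 7.59, 5.75 and 6.77 CPM at day 30 and 4.0, 2.14, 7.31, 6.91 and 2.6 CPM at day 45. MEOX2, its relative in limb muscle and vessels, overlapped between all days and was at -0.69 ± 0.30 between days 21 and 45 (adjusted p = 0.0582). By the means of TPM, MEOX1 was at 1.72 times MEOX2 at day 21, 0.231 times at day 30 and 0.0923 times at day 45.

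NKX3-2 (chromosome 4, 13540830 to 13545050, minus strand), also known as BAPX1, is a repressor that promotes cartilage formation in the sclerotome and sets the jaw joint. NKX3-2 was at 8.92, 6.64, 8.2 and 11 CPM at day 21, 9.49, 14.7, 16.1, 8.83 and 14 CPM at day 30 and 17.2, 14.3, 17.6, 14.4 and 17.7 CPM at day 45. The lowest day 45 value was above the highest of day 21, and day 30 overlapped both. NKX3-2 rose by 0.90 ± 0.18 between days 21 and 45 (log2, SE, edgeR adjusted p = 0.000337). The step to day 30 (0.54 ± 0.18, adjusted p = 0.0173) lost its call under 5 alternatives, among them leaving out day 21 replicate 2, day 30 replicate 3 or day 30 replicates 3 to 5 (0.46, adjusted p = 0.0735). PAX3, a factor of muscle precursors and crest, was at 0.329 to 1.92 CPM and was not called.

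TWIST1 (chromosome 7, 19020991 to 19117672, minus strand), the basic helix-loop-helix factor whose loss fuses skull sutures, was low at day 30 alone. TWIST1 was at 11.4, 10.9, 8.77 and 11.1 CPM at day 21, 5.74, 6.07, 4.21, 5.26 and 3.81 CPM at day 30 and 10.3, 9.98, 9.33, 9.87 and 10.8 CPM at day 45. All 5 day 30 values lay below all others, and days 21 and 45 overlapped. TWIST1 fell by 1.07 ± 0.14 and rose by 1.01 ± 0.13 on the log2 scale (SE, edgeR adjusted p = 5.61e-06 and 9.14e-06), and the 2 steps differed by 2.08 ± 0.24 (adjusted p = 3.79e-06). The dip was also called without day 30 replicates 3 to 5 (-0.84, adjusted p = 0.000264, and 0.76, adjusted p = 0.000739). Day 45 against day 21 was at -0.07 ± 0.13 (adjusted p = 0.692), and on log2(TPM + 1) at -0.49 (limma adjusted p = 0.0191), or -0.15 relative to the median of all genes. TWIST2 was at 0.417, 0.481, 0.595 and 0.312 CPM at day 21, 0.268, 0.112, 0.0926, 0.149 and 0.115 CPM at day 30 and 0.51, 0.188, 0.404, 0.288 and 0.288 CPM at day 45. TWIST2, a relative in dermis and skull, fell by 1.56 ± 0.41 and rose by 1.13 ± 0.42 (edgeR adjusted p = 0.00409 and 0.0288), with days 30 and 45 overlapping. The steps differed by 2.69 ± 0.75 (adjusted p = 0.00604). Without day 30 replicates 3 to 5 no call was made (-1.17, adjusted p = 0.12, then 0.73, adjusted p = 0.341, and a difference of 1.90, adjusted p = 0.207), nor with day 45 replicate 1 placed at day 30 (-1.07, adjusted p = 0.0598, then 0.44, adjusted p = 0.475, and a difference of 1.51, adjusted p = 0.143). The second step lost its call under 10 alternatives in all, among them DESeq2 (adjusted p = 0.0676), no filter on low counts (adjusted p = 0.0749) and leaving out day 30 replicate 2, 3 or 5 or day 45 replicate 1 or 3.

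**Figure D3:**
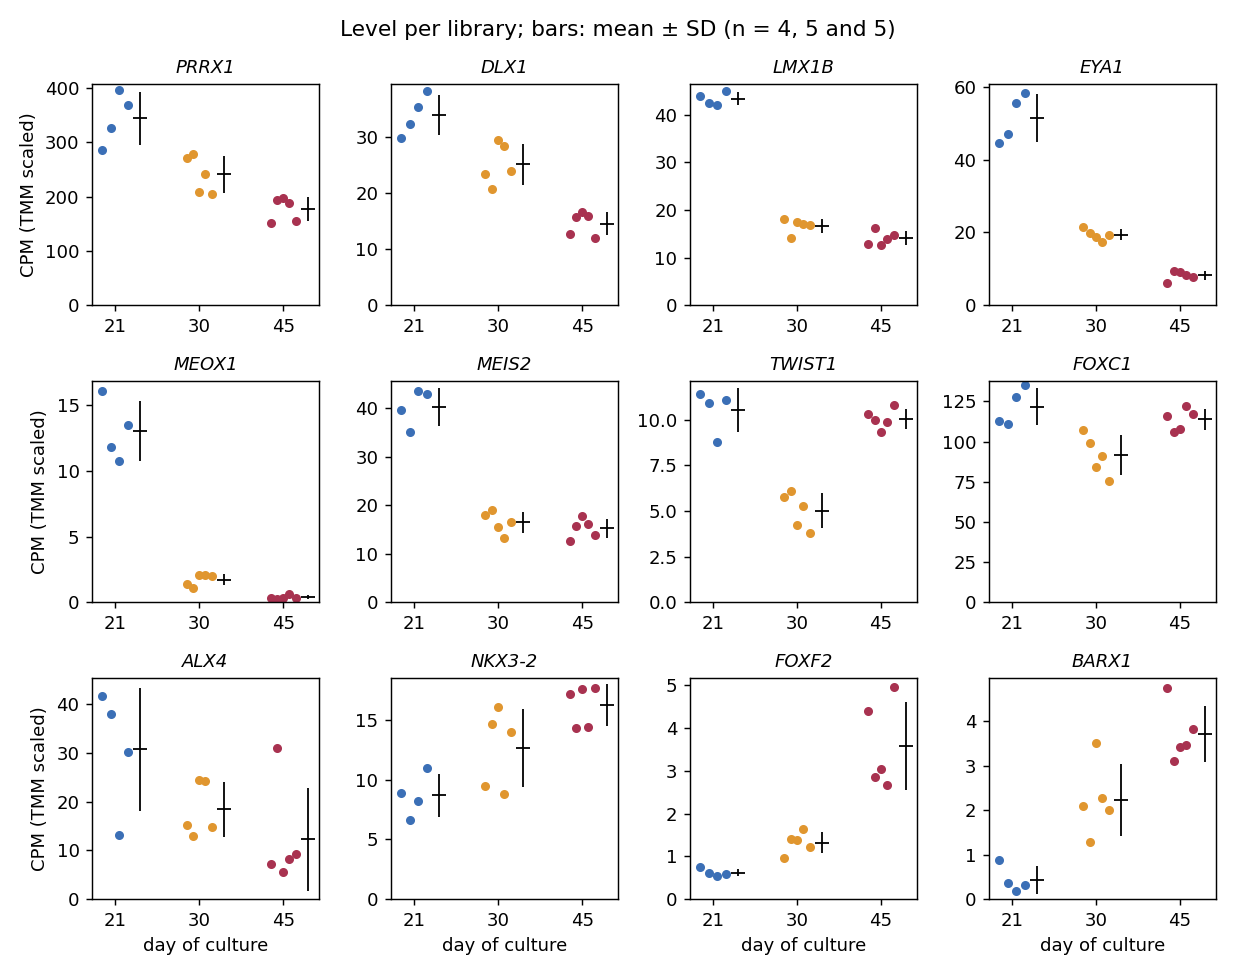
Each panel is 1 factor, with CPM scaled by TMM on the vertical axis, day of culture on the horizontal axis, a point per library and bars for the mean ± SD (n = 4, 5 and 5). MEOX1 goes from 10.8 to 16.1 CPM at day 21 down to 0.263 to 0.658 CPM at day 45, TWIST1 is lowest at day 30, and BARX1 and FOXF2 are highest at day 45.

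The T-box factors TBX15 and TBX18, which shape limb girdle and somite boundaries, were tested and not called. TBX15 was at 2.75, 3.06, 0.543 and 1.73 CPM at day 21, 1.53, 1.01, 2.73, 4.02 and 2.92 CPM at day 30 and 3.22, 5.78, 0.661, 2.55 and 1.73 CPM at day 45. Day 21 replicate 3 and day 45 replicate 3 were the lowest of their days and day 45 replicate 2 the highest of all. TBX18 was at 0.389, 0.633, 0.569 and 0.595 CPM at day 21, 0.574, 0.0562, 0.556, 0.446 and 0.384 CPM at day 30 and 0.628, 0.338, 0.367, 0.288 and 0.742 CPM at day 45. All 3 days overlapped. The changes between days 21 and 45 were 0.46 ± 0.54 for TBX15 and -0.21 ± 0.41 for TBX18 (log2, SE, edgeR adjusted p = 0.479 and 0.673).

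The other 10 members were too low to be tested. UNCX, a factor of the posterior somite, had 0 counts in every library, below a floor of 0.0891 to 0.165 CPM by raw library totals. Summed over the 14 libraries, OSR1 had 11 counts, TBX1 12, HAND2 15, FOXF1 16, OSR2 51, PAX1 56, TFAP2B 61, DLX4 65 and PAX9 66, and no library exceeded 0.695 CPM for any of them. PAX1, the main factor of the ventral sclerotome, had 0 or 1 count in each day 21 library and 5 to 11 in each day 45 library (0.0 to 0.0283 and 0.184 to 0.453 CPM). OSR2 was at 0.111, 0.0507, 0.0 and 0.142 CPM at day 21, 0.0, 0.0562, 0.0, 0.0496 and 0.115 CPM at day 30 and 0.314, 0.263, 0.331, 0.247 and 0.206 CPM at day 45. TFAP2B was at 0.695, 0.532, 0.0517 and 0.198 CPM at day 21, 0.0, 0.0, 0.0, 0.0496 and 0.0769 CPM at day 30 and 0.0, 0.0375, 0.0, 0.0823 and 0.0 CPM at day 45. OSR2, an odd-skipped factor of palate and joint, was higher in every day 45 library than in any earlier one, and TFAP2B, the AP-2 relative of TFAP2A, was highest in day 21 replicates 1 and 2. For OSR1 and TBX1, which pattern kidney mesenchyme and the pharynx, all 5 day 30 libraries were at 0. OSR1 was at 0.0834, 0.0253, 0.0517 and 0.0 CPM at day 21, 0.0, 0.0, 0.0, 0.0 and 0.0 CPM at day 30 and 0.0, 0.0375, 0.0, 0.0823 and 0.0824 CPM at day 45. TBX1 was at 0.0, 0.0, 0.0776 and 0.0283 CPM at day 21, 0.0, 0.0, 0.0, 0.0 and 0.0 CPM at day 30 and 0.0393, 0.0751, 0.0, 0.0823 and 0.124 CPM at day 45. HAND2 was at 0.0834, 0.0, 0.0517 and 0.0567 CPM at day 21, 0.0, 0.112, 0.0, 0.0 and 0.0 CPM at day 30 and 0.0, 0.0375, 0.0367, 0.0 and 0.165 CPM at day 45. In none of these 3 did days 21 and 45 separate. DESeq2, which was run on all genes with a count, called PAX1 (log2 fold change 3.87, adjusted p = 0.000439) and OSR2 (1.87, adjusted p = 0.0376) higher and TFAP2B (-3.95, adjusted p = 0.00441) lower at day 45 than at day 21. At day 30 against day 21 it called PAX1 (2.84, adjusted p = 0.0175) and DLX4 (1.93, adjusted p = 0.0273) higher and TFAP2B (-3.80, adjusted p = 0.00707) lower, and at day 45 against day 30 OSR2 higher (2.63, adjusted p = 0.0101). Of the differences between intervals it called that of DLX4 (-2.86, adjusted p = 0.0448). FOXF1, DLX4 and PAX9, factors of gut, branchial arches, and teeth and vertebrae, also overlapped between days 21 and 45. Like OSR1 and TBX1, FOXF1 was at 0 in all 5 day 30 libraries, and it was at 0.0253 to 0.113 CPM at day 21. The day 30 libraries held 18183776 to 28355272 expected counts and those of the other days 27627887 to 33660704.

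**Figure D4:**
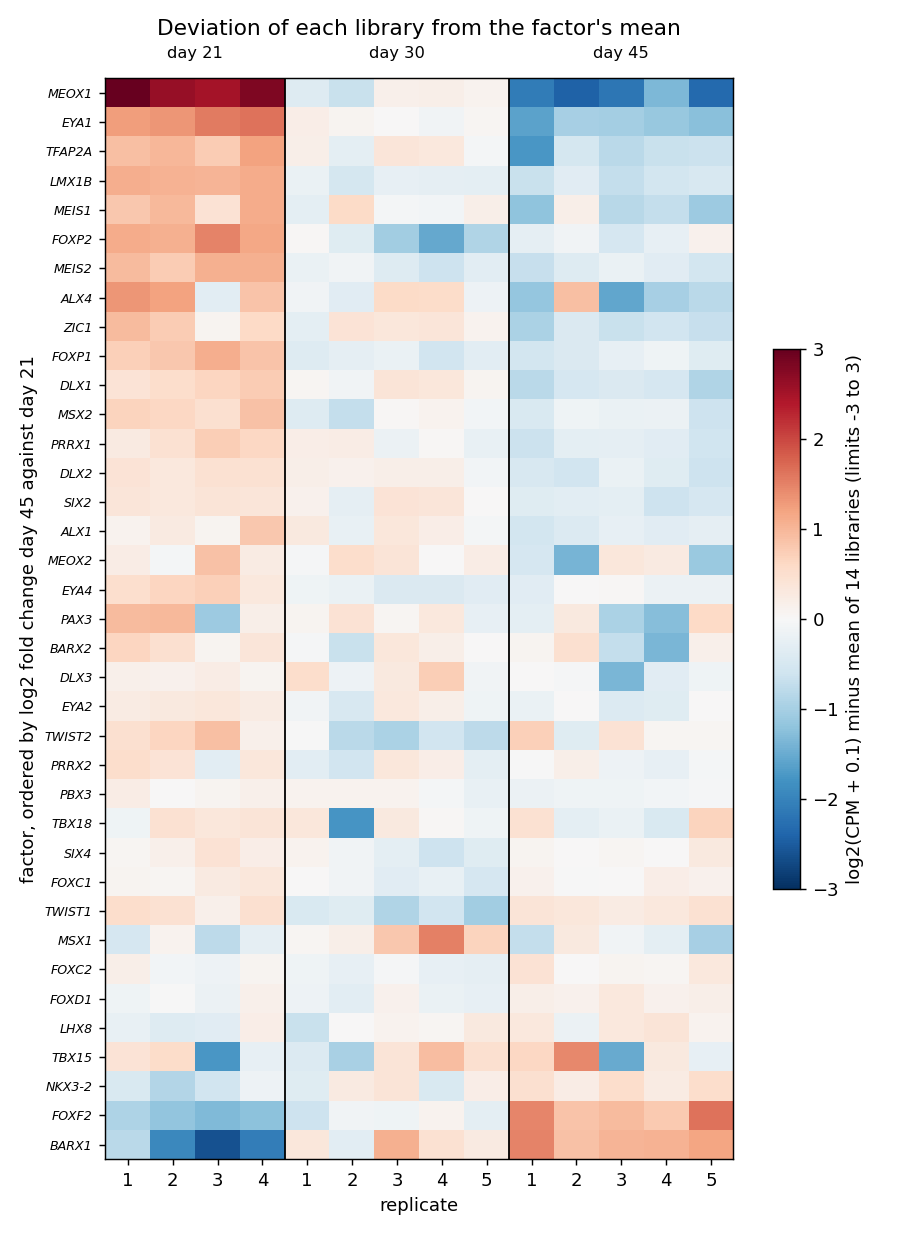
Rows are the 37 factors tested, ordered by their log2 fold change from day 21 to day 45, columns are the 14 libraries by day and replicate, and colour is log2(CPM + 0.1) minus the mean of the 14 libraries. MEOX1 and EYA1 at the top go from red at day 21 to blue at day 45, BARX1 and FOXF2 at the bottom do the reverse, and TWIST1 is blue at day 30.

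HOX genes, which give position along the body axis, were near 0 throughout. None of the 39 HOX genes passed the filter, 13 had 0 counts in every library, and no HOX gene exceeded 0.275 CPM in any library. Their sum was 0.44 to 0.507 CPM at day 21, 0.0992 to 0.787 CPM at day 30 and 0.624 to 1.32 CPM at day 45, far under the sum of the 47 factors.

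Of 42 other relatives of the factors, 25 were tested. Between days 21 and 45, 6 rose and 10 fell, with a median of -0.26. With means ± SD of the 4 day 21 and the 5 day 45 libraries, PKNOX2, a TALE relative of MEIS, fell from 40.4 ± 3.45 to 10.7 ± 1.32 CPM (log2 fold change -1.92 ± 0.10, SE, edgeR adjusted p = 9.92e-11). FOXL1, a forkhead factor of gut mesenchyme, rose by 1.17 ± 0.14 (adjusted p = 1.36e-06). Of 20 partners and signals, 18 were tested, with a median of -0.24. Of these, 6 rose and 8 fell (33.3% and 44.4%, beside 27.1% and 30.5% of all genes tested). BMP4, a ligand that induces MSX genes in jaw mesenchyme, fell from 28.7 ± 1.84 to 5.37 ± 0.647 CPM (log2 fold change -2.42 ± 0.10, adjusted p = 9.18e-12), and NOG, the BMP antagonist noggin, rose from 13.1 ± 2.17 to 32.8 ± 3.95 CPM (1.33 ± 0.16, adjusted p = 1.2e-06). TCF3 and TCF4, E proteins that pair with TWIST1, fell by 0.89 ± 0.09 and 1.80 ± 0.21 (adjusted p = 1.25e-07 and 1.17e-06), and both were called lower in the first interval (-0.95 ± 0.09 and -1.98 ± 0.21) and not in the second (adjusted p = 0.59 and 0.464).

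Between days 21 and 45 all 3 calls upward and 17 of the 19 downward were also made under every alternative tried, the exceptions being ALX4 and PBX3. From day 21 to day 30 this held for BARX1 among 4 risers and for 11 of 18 that fell (DLX1, MSX2, LMX1B, EYA1, EYA4, FOXP1, FOXP2, TFAP2A, MEIS2, MEOX1 and TWIST1). From day 30 to day 45 it held for TWIST1 among 8 risers and for 6 of 12 that fell (DLX1, DLX2, SIX2, EYA1, ZIC1 and MEOX1). The difference between the intervals was called under every alternative for LMX1B, EYA4, FOXP1, FOXP2, MEIS2 and TWIST1.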

How the data were processed

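Total RNA from whole pellets was made into TruSeq RNA v2 libraries, which keep no strand, per the labels' protocols. The submitters' processing notes name STAR 2.4.2a, RSEM 1.2.25 and GRCh38, with an annotation release not given in the sources used here. The authors deposited RSEM expected counts and TPM per gene for each library. Genes were matched by Ensembl identifier to symbols, with positions from GENCODE 29.

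Expected counts were rounded to whole numbers, filtered with filterByExpr, scaled by TMM and fitted over all 14 libraries by edgeR's robust quasi-likelihood test (edgeR 4.0.16, R 4.3.3) with day as the only factor, and p-values were adjusted by Benjamini-Hochberg over 17838 genes and called below 0.05. CPM is the rounded count scaled by the TMM library size. The deposited TPM served to compare genes and, as log2(TPM + 1), an alternative fit with limma 3.58.1. That fit understates the change of low genes. Other alternatives were DESeq2 1.42.0, its size factors within edgeR, no filter on low counts, the replicate number as a block, day 45 replicate 1 placed at day 30, day 30 replicates 3 to 5 left out, and each library left out in turn. The scripts were tested on simulated counts.

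Same-numbered libraries of different days did not deviate together (correlations of -0.25 to 0.12 over 13 pairs), so the numbers were not taken to pair samples. Depth floors of 3 counts cover counting error only. The members, the lists (other relatives, partners and signals, HOX genes, and cell type markers) and the alternatives were chosen with earlier results of these data known. Values in every library are given for up to 3 members of each role group with the highest mean TPM and up to 3 with the smallest adjusted p in any comparison, and MSX1, ALX1 and ALX4 were added after their values were seen. Of each list of companions up to 4 genes with the smallest adjusted p between days 21 and 45 are named, except that some of them are not reported here.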

Additional observations from a re-analysis of the deposited data

Results flagged for a closer look

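Of 111 groups of 4 or 5 libraries, 5 held a library whose gap to its nearest neighbour was large against the range of its group, where chance gives about 1 in 20 groups. DLX2 was at 8.8 CPM in day 30 replicate 5 and at 10.2 to 10.5 CPM in the other libraries of that day. ALX4 was at 31.0 CPM in day 45 replicate 2, against 5.55 to 9.36 CPM in the others, and MEIS1 in the same library was at 2.51 CPM, against 0.903 to 1.32 CPM. SIX4 was at 55.3 CPM in day 45 replicate 5, against 45.7 to 47.8 CPM. MEOX1 was at 0.658 CPM in day 45 replicate 4, against 0.263 to 0.353 CPM.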

How the results depend on the processing

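The counts of called factors were recomputed under each alternative, and those not named here stayed within 1.5 times. From day 21 to day 30 the higher count was 4, and 1 on log2(TPM + 1) with limma and 2 without day 30 replicates 3 to 5. From day 30 to day 45 the total of 20 was 7 with day 45 replicate 1 placed at day 30 (1 higher, 6 lower) and 13 without day 30 replicates 3 to 5 (5 higher). Between days 21 and 45 DESeq2 called 5 higher in place of 3, the others being PAX1 and OSR2. For the difference between intervals, limma on log2(TPM + 1) called 20 in place of 13 (19 higher, 1 lower), and edgeR without day 30 replicates 3 to 5 called 0 lower in place of 2. Leaving out each library in turn gave totals of 19 to 24, 17 to 21 and 20 to 24 in the 3 comparisons and 12 to 13 for the difference. The 8 risers of the second interval ranged from 5 (without day 30 replicate 5) to 8, and the 2 lower differences from 1 (without day 30 replicate 3) to 3. On log2(TPM + 1) FOXC2 was at -0.26 between days 21 and 45 (limma adjusted p = 0.0413, or 0.08 relative to the median of all genes). In the main fit it was at 0.18 (edgeR adjusted p = 0.147). The PBX3 difference was at 0.74 on log2(TPM + 1) (limma adjusted p = 0.00458, or 0.37 relative to the median). In the main fit it was at -0.0 ± 0.14 (SE, edgeR adjusted p = 0.981). Neither was called in the main fit, so no called direction was reversed. The cause was not tested. Depth limits the 10 untested factors, each at no more than 0.695 CPM.

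With the replicate number as a block, totals were 19, 19, 21 and 13 for the 3 comparisons and the difference, against 22, 20, 22 and 13 without. The numbers were not taken to pair the samples.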
